A study of Arabidopsis thaliana with 20 samples.

Results

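Photosystem I is the pigment-protein complex of the thylakoid membrane that takes electrons from plastocyanin on the lumenal side and passes them to ferredoxin on the stromal side. Its reaction centre core is encoded in the chloroplast, whereas most of the small subunits around the core are encoded in the nucleus and imported. Transcripts of 10 of these nuclear genes were examined, taken by gene identifier, out of 32744 genes in the count tables, of which 32548 are nuclear. They are PSAD1 and PSAD2, PSAE1 and PSAE2, PSAF, PSAG, PSAH2, PSAK, PSAL and PSAN. PSAH1 and PSAO, which also encode subunits of the complex, were not among the 10 and are given further on for comparison.

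The data are RNA-Seq counts from rosettes of wild-type Arabidopsis thaliana grown on soil under limiting nitrogen (N-limiting), watered with a solution of 2.5 mM nitrate for 19 days on an automated phenotyping platform. There were 10 libraries. The labels and the study's methods count 10 replicates, whereas the series description speaks of 5 biological replicates, so some of the 10 may not be independent, and n = 10 and the p-values below rest on the labels. The labels do not say whether a library is 1 plant or a pool, or give any batch or date. The 10 libraries labelled N-sufficient (5 mM nitrate) held the same 32744 values as the N-limiting libraries of the same number, those of all 10 genes included. Nitrogen supplies could therefore not be compared, the 10 libraries were counted once, and their assignment to limiting nitrogen rests on the labels and the study's methods.

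Counts per library ranged between 41423334 and 60323158, with a median of 44010088, and 63.9% to 72.3% of them fell on chloroplast genes. The 10 photosystem I genes together took 200901 to 320520 counts per library, or 1.43% (replicate 9) to 1.83% (replicate 3) of the nuclear counts. The 5 leaf marker genes summed to 12442 to 20236 CPM, counts scaled to the same total in every library, whereas root, flower and seed markers summed to at most 1, 7 and 2 counts in any library. Values are CPM scaled with trimmed mean of M-values (TMM) factors unless another scale is named. These factors lay between 0.802 and 1.27 and were smallest in replicates 3 and 6, the libraries with the largest chloroplast share, so correlations are also given without them. In whole rosettes, fewer cells of a type and less RNA per cell cannot be told apart.

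The PsaD and PsaE subunits, which form the stromal docking site for ferredoxin, are each encoded by a pair of genes. How far reads can tell the members of a pair apart depends on their sequences, so the most alike 90-base stretch of each pair's coding sequence is shown, with the bases that differ in capitals (RefSeq, TAIR10.1, 5′ to 3′ on the coding strand).

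PSAD1: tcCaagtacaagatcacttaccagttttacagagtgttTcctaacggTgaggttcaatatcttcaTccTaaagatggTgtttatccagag
PSAD2: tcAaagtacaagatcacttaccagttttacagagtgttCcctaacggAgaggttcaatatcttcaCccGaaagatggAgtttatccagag
PSAE1: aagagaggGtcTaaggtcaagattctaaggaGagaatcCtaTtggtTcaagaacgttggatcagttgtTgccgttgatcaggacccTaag
PSAE2: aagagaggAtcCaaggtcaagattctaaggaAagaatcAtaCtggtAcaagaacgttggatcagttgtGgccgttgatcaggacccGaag

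Within these stretches 84 of 90 bases were identical between PSAD1 and PSAD2, and 82 of 90 between PSAE1 and PSAE2. Over the aligned coding sequence PSAD1 and PSAD2 shared 88.0% of bases and 95.1% of residues, with a longest identical run of 35 bases. PSAE1 and PSAE2 shared 78.6% of bases and 77.5% of residues, with a longest identical run of 22 bases. At most 0.647% of the 30-base words in the exons of any of the 10 genes occurred elsewhere in the nuclear genome, the highest share being that of PSAD2. The sources do not give the treatment of reads that align to several places.

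The 10 genes lie on chromosomes 1, 2, 4 and 5 (RefSeq annotation of TAIR10.1, whereas the authors aligned to TAIR10). PSAD1 (AT4G02770) has a single exon at chr4:1229031-1230164, and PSAD2 (AT1G03130) has one at chr1:753307-754262. PSAE1 (AT4G28750) spans chr4:14202758-14204061 and PSAE2 (AT2G20260) chr2:8736734-8737767, each with 3 exons. PSAL (AT4G12800) has 2 exons at chr4:7521257-7522761, and PSAF (AT1G31330) has 2 exons at chr1:11214676-11216141. PSAG (AT1G55670) is a single-exon gene at chr1:20802670-20803449. PSAH2 (AT1G52230, chr1:19454798-19455668), PSAK (AT1G30380, chr1:10722183-10723247) and PSAN (AT5G64040, chr5:25628521-25629708) have 3 exons each. Exons of PSAE1, PSAE2, PSAG, PSAH2 and PSAN overlap genes on the opposite strand, by 39 (PSAN) to 479 (PSAG) bases. The libraries were stranded, but the strand option of the counting is not given in the sources used here. The overlapping genes had median counts of 5 to 739.5 per library, against 4787 to 28995 for the photosystem I genes they overlap.

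All 10 genes were among the most abundant nuclear transcripts per length. By mean CPM per kilobase of exon they ranked between 27 (PSAL) and 112 (PSAE2) of the 17691 protein-coding nuclear genes ranked. The order was PSAL, which with PsaH forms the side of the complex where the mobile antenna docks, at 922 ± 171 CPM per kilobase (SD, n = 10), then PSAE1 at 854 ± 154, PSAK at 641 ± 98.1, PSAN at 591 ± 53.9, PSAH2 at 580 ± 89.6, PSAD1 at 456 ± 85.5, PSAF at 441 ± 40.7, PSAG at 432 ± 52.4, PSAD2 at 291 ± 42.5 and PSAE2 at 182 ± 25.7.

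**Figure D1:**
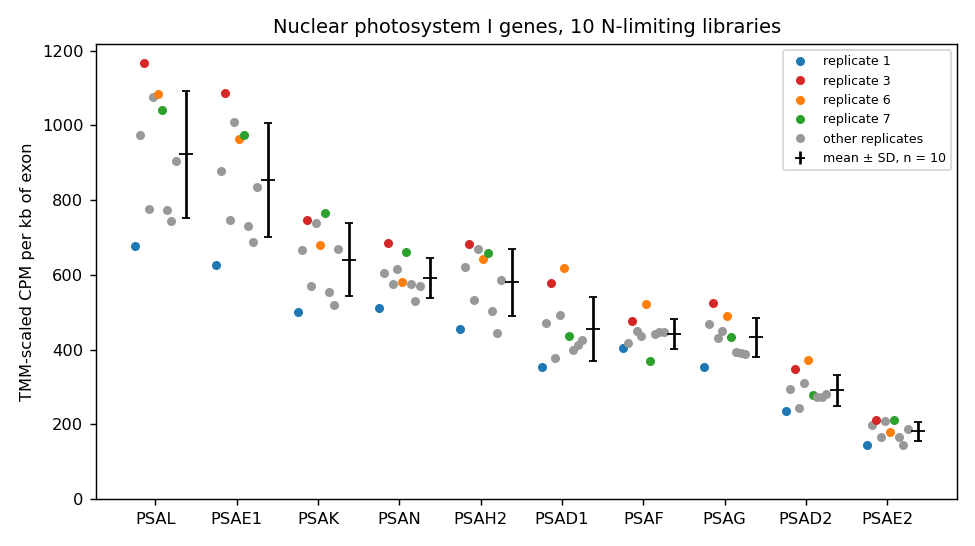
TMM-scaled CPM per kilobase of exon (vertical axis, linear from 0) for the 10 nuclear photosystem I genes, with 1 point per N-limiting library and the mean ± SD over 10 libraries as a bar. Replicate 1 (blue) is low for most genes and replicate 3 (red) high, whereas PSAF is lowest in replicate 7 (green) at 370 and highest in replicate 6 (orange) at 521.

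Neighbours in this order were compared within each library by an exact two-sided sign-flip permutation test of the log2 ratio of their levels per kilobase, with Benjamini-Hochberg adjustment over the 9 tests. The smallest p this design can give is 0.001953. For 5 neighbours the first gene was higher in 10 of 10 libraries (adjusted p = 0.003516 each), namely PSAL over PSAE1 (log2 ratio 0.11 ± 0.03), PSAE1 over PSAK (0.41 ± 0.07), PSAH2 over PSAD1 (0.35 ± 0.17), PSAG over PSAD2 (0.58 ± 0.12) and PSAD2 over PSAE2 (0.68 ± 0.19). PSAK passed over PSAN (0.11 ± 0.13, p = 0.0332, adjusted p = 0.0498) but was higher in only 6 of 10 libraries. That call was lost when replicate 2, 3, 5, 6, 7 or 10 was left out, with an adjusted p of up to 0.0996. PSAN and PSAH2, PSAD1 and PSAF, and PSAF and PSAG did not differ beyond their spread (adjusted p = 0.487, 0.619 and 0.593). The length used matters for the order and for these calls. Per kilobase of coding sequence PSAE1 came first at 1578 CPM, above PSAL at 1243. PSAK and PSAL, next to each other, did not differ beyond their spread (log2 ratio 0.02 ± 0.09, adjusted p = 0.523). By the same test per coding length, PSAN passed over PSAH2 (0.257 ± 0.135, 10 of 10 libraries, adjusted p = 0.004395). So did PSAF over PSAG (0.19 ± 0.17, 8 of 10 libraries, adjusted p = 0.02051), whereas PSAD1 and PSAF again did not differ (adjusted p = 0.6035).

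PSAD1 and PSAD2 encode near-identical proteins, and PSAD1 was the more abundant in every library. PSAD1 was lowest in replicate 1 at 353 CPM per kilobase, had a median of 431 and was highest in replicate 6 at 618. PSAD2 had 235 in replicate 1, a median of 279 and 372 in replicate 6. By TMM the 2 genes thus had their lowest and highest values in the same libraries. From total counts PSAD1 was lowest in replicate 9 and PSAD2 in replicate 4, and both were highest in replicate 6. Their ratio stayed between 1.47 (replicate 8) and 1.67 (replicate 3), with a geometric mean of 1.56 and a log2 ratio of 0.64 ± 0.06 (SD, n = 10; exact sign-flip permutation test, adjusted p = 0.001953 over 2 pairs).

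The PsaE pair was less even. PSAE1 had 626 CPM per kilobase in replicate 1, a median of 857 and 1087 in replicate 3. PSAE2 was lowest in replicate 1 at 145, had a median of 182 and was highest in replicate 7 at 212, so that no PSAE2 library reached the lowest PSAE1 library. The ratio lay between 4.31 (replicate 1) and 5.40 (replicate 6), with a geometric mean of 4.68 and a log2 ratio of 2.23 ± 0.10 (adjusted p = 0.001953 over 2 pairs, higher in 10 of 10 libraries). Per kilobase of coding sequence the log2 ratios were 0.86 for PSAD1 over PSAD2 and 2.64 for PSAE1 over PSAE2. PSAH2, whose subunit is needed for docking of the mobile antenna, has a partner outside the 10, PSAH1 (AT3G16140). PSAH2 exceeded PSAH1 by 2.62 (replicate 6) to 3.32 (replicate 5) times per kilobase of exon, a log2 ratio of 1.64 ± 0.11 that fell to 0.75 per kilobase of coding sequence. The annotated exons of PSAH1 sum to 1300 bases, against 702 for PSAH2, with an equal coding length of 438. Of the PSAH1 exon bases 693 overlap AT3G16130 on the opposite strand (median 4 counts), against 174 of PSAH2 with AT1G52240. The strand option of the counting is not given, and the effect of these overlaps on the ratio was not tested.

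**Figure D2:**
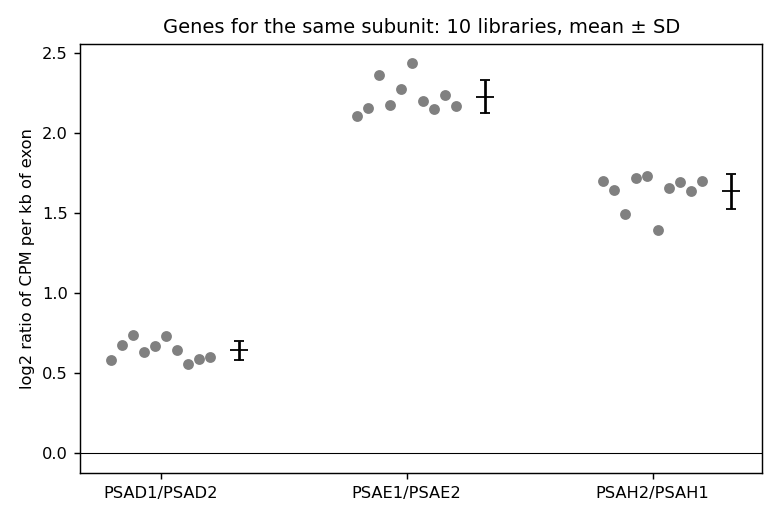
Log2 ratio of CPM per kilobase of exon (vertical axis) between genes for the same subunit, with 1 point per library and the mean ± SD over 10 libraries. All points lie above 0, and the ratio is largest for PSAE1 over PSAE2, at 2.11 to 2.43.

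The genes differed in how much they varied between libraries. By TMM-scaled CPM PSAD1 had the widest spread, at 400 CPM in replicate 1, a median of 488 and 700 in replicate 6. Its coefficient of variation (CV) was 18.8%, but 15.5% without replicate 6, where PSAL had 18.9%. PSAL had 773 CPM in replicate 1, a median of 1072 and 1330 in replicate 3 (CV 18.5%), and PSAE1 had 499, 684 and 867 CPM in the same way (CV 18.0%). These 3 genes shared replicate 1 as their lowest library, and their highest library exceeded it by 1.72 (PSAL) to 1.75 (PSAD1) times.

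PSAH2 was lowest in replicate 9 at 312 CPM, had a median of 424 and was highest in replicate 3 at 479 (CV 15.5%). PSAK, a subunit at the edge of the core that contacts the light-harvesting antenna, had 384 CPM in replicate 1, a median of 513 and 589 in replicate 7 (CV 15.3%). Its counterpart on the other side, PSAG, had 275 CPM in replicate 1, a median of 337 and 409 in replicate 3 (CV 12.1%). By TMM-scaled CPM, 8 of the 10 genes were lowest in replicate 1, all but PSAF and PSAH2. With CPM from total counts, 7 of the 10 were lowest in replicate 9, PSAG and PSAK among them, and 0 in replicate 1.

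By TMM-scaled CPM the narrowest spreads were those of PSAN and PSAF. PSAN, for a subunit on the lumenal side, had 519 CPM in replicate 1, a median of 589 and 699 in replicate 3 (CV 9.13%). PSAF, which provides the docking site for plastocyanin, had 445 CPM in replicate 7, a median of 535 and 626 in replicate 6 (CV 9.24%). Counting error alone would give a CV of 0.457% to 1.40%. The median CV of the 10 genes was 14.98%, against 15.5% over the 18255 nuclear genes that averaged 10 counts or more. Among the 200 genes nearest in mean count, 9% had a lower CV than PSAN, 10% a lower one than PSAF and 69.5% a lower one than PSAD1. With CPM from total counts the median CV was 9.94% and the order changed: PSAD2 was then the least variable (5.23%), and PSAF was at 11.2% and PSAN at 8.96%.

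Most of the 10 genes ranked the libraries alike. Replicate 3 was among the 3 highest libraries for 10 of 10 genes and replicate 5 for 8, whereas replicate 1 was among the 3 lowest for 10 of 10 and replicates 8 and 9 for 7 each. Summed over the 10 genes, TMM-scaled CPM was 6047 in replicate 3 and 3968 in replicate 1. Replicate 3 had the largest chloroplast share (72.3%) and replicate 1 the smallest (63.9%), with TMM factors of 0.802 and 1.27; the part of this share in the ranking was not tested. Without TMM factors the summed CPM was highest in replicate 10 (5313) and lowest in replicate 9 (4300).

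**Figure D3:**
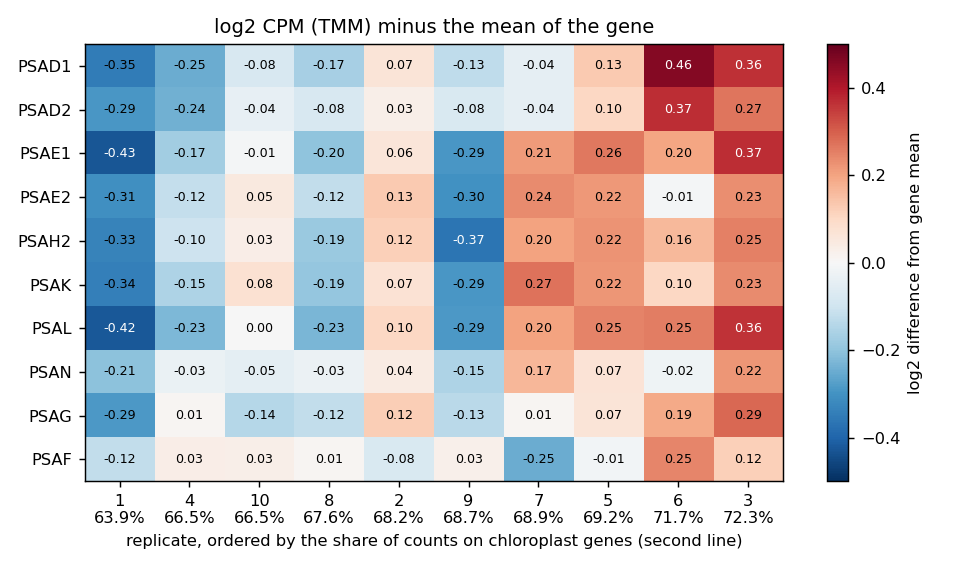
Deviation of each gene's log2 CPM (TMM) from its mean over 10 libraries, with genes down the page and libraries across it, ordered by the share of counts on chloroplast genes (second line of the labels). Replicate 1 is below the mean for all 10 genes and replicate 3 above it for all 10, whereas in replicate 7 PSAF is 0.25 below its mean when PSAK is 0.27 above.

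Across the 45 pairs of genes the median Pearson correlation of log2 CPM over the 10 libraries was 0.82 and the median Spearman correlation 0.83. Of these pairs 32 had an adjusted p under 0.05 by Pearson and 33 by Spearman (two-sided permutation test with 100000 resamples, Benjamini-Hochberg over 45). With the 2 libraries farthest from the median of the first gene left out, the median Pearson correlation was 0.74. These correlations depend on the scaling. With CPM from total counts the median was 0.30 and 11 pairs passed, and with CPM from nuclear counts without TMM factors it was 0.63 and 13 passed. A correlation above 0.7 was found in 31 of the 45 pairs by TMM, 12 from total counts and 18 from nuclear counts. Over all pairs of the 12262 nuclear genes averaging at least 100 counts, the shares above 0.7 were 7.84% by TMM, 34.2% from total counts and 11.8% from nuclear counts. From total counts the share among the photosystem I pairs was thus no larger than the background.

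How large a share of all nuclear gene pairs would pass the permutation test was not computed, so the counts of passing pairs have no background of their own. There were 11 pairs that passed under all 3 scalings, as many as passed from total counts. PSAD1 with PSAD2 was one (r = 0.99 by TMM, Spearman 0.99, p = 1e-05, the smallest the resamples can give, adjusted p = 0.00015; r = 0.82 from total counts, adjusted p = 0.0187), with r = 0.97 by TMM once the 2 farthest libraries were left out. PSAE1 with PSAL was another, with r = 0.99 by TMM (Spearman 0.96, p = 1e-05, adjusted p = 0.00015, and r = 0.99 without the 2 farthest libraries) and r = 0.98 from total counts (adjusted p = 0.0006). Of the 11 pairs, 9 lay among PSAE1, PSAE2, PSAH2, PSAK and PSAL, which form 10 pairs in all, and the last was PSAE2 with PSAN. This group of genes was noticed after the values were seen and its count is a description. Within it r lay between 0.91 and 0.99 by TMM and between 0.74 and 0.98 from total counts, where PSAE2 with PSAL did not pass (adjusted p = 0.0548). PSAD1 with PSAK had r = 0.71 by TMM (Spearman 0.77, p = 0.02054, adjusted p = 0.03081) but r = 0.11 from total counts (adjusted p = 0.845), so that call rests on the TMM factors.

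PSAF was the gene least related to the others by TMM. Its 9 pairs had a median r of 0.21 by TMM (lowest −0.09 with PSAE2, highest 0.62 with PSAD2), and 0 of 9 passed by Pearson or by Spearman. The other 36 pairs had a median r of 0.86, and 32 of them passed. At an unadjusted p under 0.05, 0 of the 9 passed either. By TMM r was above 0.7 in 0 of the 9 pairs and in 31 of the other 36, against 7.84% of all pairs of nuclear genes. With 9 pairs, 0 is near that share, so the count is not a trait particular to PSAF. The value rests on single libraries: without replicate 7 the median r of the 9 pairs was 0.55 and PSAF with PSAD1 and PSAF with PSAD2 passed, without replicate 4 PSAF with PSAD2 passed, and without replicates 1, 3 and 6, left out one at a time, the median was 0.02, 0.07 and 0.04. With the 2 libraries farthest from the median of the first gene of each pair left out, the median r of the 9 pairs was 0.37. PSAF is the first gene in its pairs with PSAG, PSAH2, PSAK, PSAL and PSAN, where r was then 0.37 (PSAH2) to 0.60 (PSAN). It is the second gene with PSAD1, PSAD2, PSAE1 and PSAE2, so the libraries left out were those of the other gene. There r was −0.05, 0.02, −0.14 and −0.39. Without TMM factors the median r of the PSAF pairs was −0.14 from total counts and −0.42 from nuclear counts. PSAF was lowest in replicate 7, the library in which PSAE2 and PSAK were highest. That the pairs with PSAF and those without differ was not tested, and the split was made after the values were seen.

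The ratio of 2 genes within a library needs no scaling, and its spread was taken as a measure that the choice of scaling cannot move. The SD of the log2 ratio was smallest for PSAE1 over PSAL, at 0.03 over 10 libraries, and 0.06 for PSAD1 over PSAD2. It was largest, at 0.27, for PSAF with PSAL. The median was 0.25 over the 9 pairs with PSAF and 0.14 over the other 36. The ranges overlapped, as PSAF with PSAD2 was at 0.16 and PSAD1 with PSAE2 at 0.21. Without replicate 7 these medians were 0.20 and 0.13. The SD was not computed for other pairs of nuclear genes, so these values have no background to be judged against. As a share of the counts of all 10 genes, PSAF had 8.29% in replicate 7, a median of 10.9% and 12.5% in replicate 9.

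**Figure D4:**
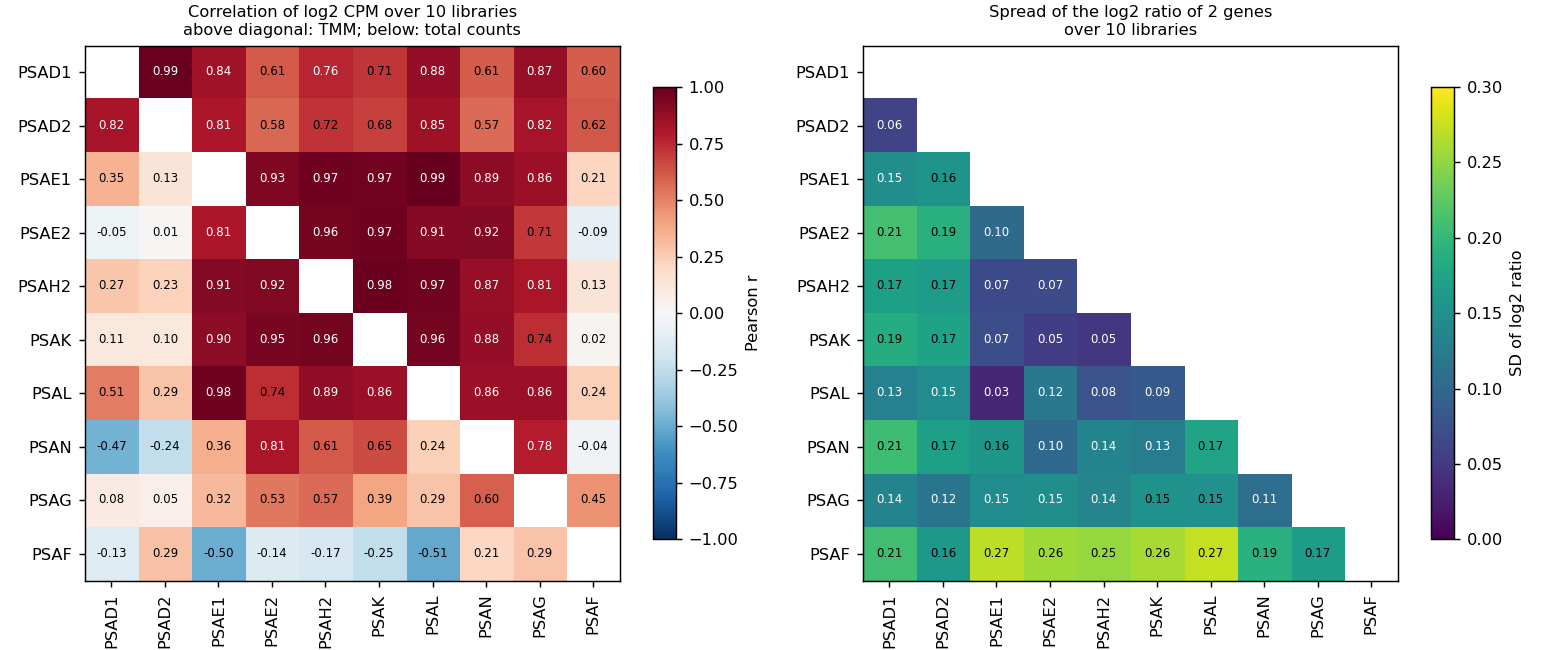
Left, Pearson correlation of log2 CPM over 10 libraries for each pair of genes, with TMM scaling above the diagonal and CPM from total counts below it. Right, SD over 10 libraries of the log2 ratio of each pair, which no scaling changes: the PSAF row reaches 0.27, whereas PSAE1 with PSAL is at 0.03.

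Other genes for the same electron path were read from lists, which were chosen with earlier results known. The mean r with the 10 genes was 0.84 for PSAH1 and 0.82 for PSAO, the subunits outside the 10. Over the 6 antenna genes of photosystem I, LHCA1 to LHCA6, it had a median of 0.81, highest for LHCA3 (0.85) and lowest for LHCA6 (0.73). Over 10 nuclear photosystem II genes the median was 0.82. Of the 6 genes for electron partners, the plastocyanin gene PETE2 was highest at 0.85 and FNR2, for a ferredoxin-NADP reductase, lowest at 0.03. The 5 genes for assembly factors had a median of 0.48, between 0.12 for HCF101 and 0.73 for PYG7. GLK2 and GLK1, transcription factors known to activate nuclear photosynthesis genes, had 0.82 and 0.61. Beside these, the 12252 nuclear genes outside the 10 that averaged 100 counts or more had a median of −0.04, and 10.6% of them lay above 0.7. All of these are TMM-scaled descriptions over the same 10 libraries and share their depth and composition. They moved with the scaling: from total counts the list medians were 0.51 for PSAH1 and PSAO, 0.57 for the antenna genes, 0.51 for photosystem II, 0.45 for the electron partners, 0.53 for the assembly factors and 0.21 for the GLK genes, against 0.13 over the other nuclear genes, and 0% of those lay above 0.7. From nuclear counts they were 0.68, 0.63, 0.66, 0.66, 0.29 and 0.43 in the same order, against −0.29.

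The 10 nuclear genes most like the photosystem I genes by mean r (0.85 to 0.86) were scpl50, CAB3, AT1G18720, LAP2, PETE2, LHCA3, CAB2, LHCB4.2, PSBW and AGT. CAB2, CAB3 and LHCB4.2 encode chlorophyll-binding antenna proteins of photosystem II (CAB2 and CAB3 are close copies whose reads may be shared), and PSBW a small photosystem II subunit. AGT encodes the peroxisomal serine:glyoxylate aminotransferase of photorespiration. By TMM, PSAF had a mean r of 0.24 with the other photosystem I genes. Each of the 10 genes most like them had its lowest correlation with PSAF, which the choice by mean r favours. With Spearman in place of Pearson correlation, 2 of these 10 remained among the first 10. From total counts 1 remained, LAP2, and the median of their mean r was 0.42, and from nuclear counts 4 remained and it was 0.70. Their ranking is therefore not firm.

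Since several of the genes ranked the libraries alike, the 250 bases before each annotated start were searched on both strands for the G-box (CACGTG), the I-box (GATAAG), the motif CCAATC, the TATA box (TATAAA) and the evening element (AAAATATCT). The G-box was in 2 of 10 windows, PSAE2 and PSAH2, against 6.49% of 27443 windows of the same length before nuclear genes. The I-box was in 4 (PSAD1, PSAF, PSAH2 and PSAK), against 12.3%, and the TATA box in 4 (PSAE1, PSAG, PSAH2 and PSAK), against 47.3%. CCAATC and the evening element were in 0 of 10, against 10.2% and 2.36%. The 3 G-boxes are shown in 30 bases each, the motif in capitals. The first lies at chr2:8736659-8736688 and the others at chr1:19454719-19454748 and chr1:19454768-19454797, all on the plus strand (TAIR10.1).

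PSAE2, G-box from -63: gatatgtgatcaCACGTGtcatatcacaag
PSAH2, G-box from -67: ctttttataatcCACGTGgcatttcctaag
PSAH2, G-box from -12: gatgacaacccaattcgcCACGTGgcagaa

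PSAE1, whose transcript followed that of PSAE2 (r = 0.93 by TMM), had no G-box in its window. Windows of 3 genes that overlap no other gene are shown because they carry the contrast in the correlations: PSAK and PSAL, which moved together (r = 0.96 by TMM), and PSAF, whose r with them was 0.02 and 0.24 by TMM. They lie at chr1:10721933-10722182 on the plus strand, chr4:7521007-7521256 on the plus strand and chr1:11216142-11216391 on the minus strand. Capitals mark I-box and TATA box matches.

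PSAK: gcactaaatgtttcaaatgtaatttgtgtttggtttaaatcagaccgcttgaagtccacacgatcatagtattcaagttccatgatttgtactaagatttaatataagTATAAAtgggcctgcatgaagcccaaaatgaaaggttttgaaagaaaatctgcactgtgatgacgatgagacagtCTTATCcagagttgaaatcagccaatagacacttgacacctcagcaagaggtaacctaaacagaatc
PSAL: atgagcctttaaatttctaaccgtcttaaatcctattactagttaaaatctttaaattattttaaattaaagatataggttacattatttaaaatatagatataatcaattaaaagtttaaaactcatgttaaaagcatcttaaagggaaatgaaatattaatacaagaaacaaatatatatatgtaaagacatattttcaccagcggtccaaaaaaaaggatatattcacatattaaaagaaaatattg
PSAF: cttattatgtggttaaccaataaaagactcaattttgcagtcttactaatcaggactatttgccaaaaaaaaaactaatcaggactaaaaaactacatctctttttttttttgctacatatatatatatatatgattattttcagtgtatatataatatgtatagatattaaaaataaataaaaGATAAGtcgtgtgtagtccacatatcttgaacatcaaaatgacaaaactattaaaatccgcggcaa

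PSAK held an I-box and a TATA box, PSAF an I-box, and PSAL none of the motifs searched. These matches describe letters in the windows and are not binding sites. Whether the motifs relate to the correlations was not tested.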

How the data were processed

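RNA-Seq counts per gene were analysed for 10 N-limiting rosette libraries of wild-type Arabidopsis thaliana. The authors prepared ribosomal RNA-depleted, stranded libraries, aligned reads to TAIR10 with STAR and deposited raw counts for 32744 genes, 1 table per library, without normalization. The annotation, strand option and treatment of reads with several alignments are not given in the sources used here. Counts were scaled with TMM factors in edgeR 4.0.16 (R 4.3.3) over genes averaging 10 counts or more, and log2 CPM used a prior count of 2. Levels were divided by the exon length of the RefSeq annotation of TAIR10.1. Neighbours in the order and paralog pairs were tested by exact sign-flip permutation, and correlations by 100000 permutations, in Python 3.11.15, with Benjamini-Hochberg adjustment. Replicates are separate libraries, so p-values measure the spread between these libraries, at the depth of 41423334 to 60323158 counts each. The N-sufficient tables hold the same counts, so no comparison between supplies was run. The genes were taken by identifier, but both they and the lists were chosen with earlier results of these data known. The text names all 10 genes, the 10 nuclear genes with the highest mean Pearson correlation with them (averaging 100 counts or more), and members of the lists. DESeq2 1.42.0 size factors, total or nuclear counts, other filters, a prior count of 0.5, coding length and each library left out were tried. Scripts were tested on simulated data.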

Additional observations from a re-analysis of the deposited data

How the results depend on the processing

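Each library was left out in turn and the results recomputed. The median CV of the 10 genes then lay between 13.45% and 15.9%, the median correlation of their pairs between 0.748 and 0.857, and the number of the 45 pairs passing between 25 and 36. The median correlation of the 9 pairs with PSAF lay between 0.0191 (without replicate 1) and 0.550 (without replicate 7), and that of the other 36 between 0.790 and 0.890. Of the neighbours 5 to 6 passed and 10 genes kept their place. The log2 ratio was 0.632 to 0.652 for PSAD1 over PSAD2 and 2.20 to 2.24 for PSAE1 over PSAE2. With CPM from total counts, the median CV was 9.94%, the median correlation 0.295 (11 pairs passing) and the median correlation of the pairs with PSAF −0.138, a reversed sign. With CPM from nuclear counts without TMM factors, an alternative added after the data were seen, they were 11.58%, 0.632 (13 pairs) and −0.416. The TMM factor was smallest in replicate 3, with the largest chloroplast share, and largest in replicate 1, with the smallest share. The part of this share in these differences was not tested. With Spearman correlation, 2 of the 10 genes named as most like were the same, and the cause was not tested. DESeq2 size factors, TMM factors of nuclear genes alone, every gene with at least 1 count and a prior count of 0.5 kept 32 pairs passing and, where they apply, the same order and paralog calls. Per coding length 7 of the 10 genes kept their place and 7 neighbours passed. No paired analysis was possible because same-numbered libraries of the 2 labels hold identical counts. The lowest count of any of the 10 genes in any library was 4092, so counting error was small beside the spread between libraries.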

Other observations

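Chosen after the values were seen, the 10 nuclear genes with the highest Pearson correlation with PSAF over the 10 libraries (TMM-scaled log2 CPM, averaging 100 counts or more) were AT5G63380 (r = 0.93), RFI2 (0.92), HBP1 (0.91), HCT (0.89), ADT6 (0.89), AT5G57070 (0.89), ROPGEF1 (0.89), PDH-E1 ALPHA (0.88), TIR1 (0.87) and AT4G22360 (0.87). HCT, an acyltransferase of the phenylpropanoid pathway, had 26.4 CPM in replicate 1, a median of 31.9 and 42.3 in replicate 6. ADT6, an arogenate dehydratase of phenylalanine synthesis, had 6.10 CPM in replicate 7, a median of 6.68 and 7.78 in replicate 6. TIR1, an auxin receptor, had 26.5 CPM in replicate 7, a median of 30.6 and 35.5 in replicate 6. In 9 of the 10 the lowest library was replicate 7 and in 10 of 10 the highest was replicate 6, as for PSAF, which the choice by correlation favours. The correlations are descriptions over libraries that share their scaling. From total counts 1 of these 10 was still among the first 10, and their r with PSAF had a median of 0.91. From nuclear counts 6 were, with a median of 0.86. High correlations were more common on these scales. Of all pairs of nuclear genes 34.2% had r above 0.7 from total counts and 11.8% from nuclear counts, against 7.84% by TMM. Of the listed genes outside the 10, GLK1 had the highest r with PSAF, at 0.75, with a mean r of 0.61 with the 10 genes. The 5 leaf markers, all TMM-scaled, differed among themselves. RCA, for Rubisco activase, had r = 0.67 with PSAF but a mean r of −0.15 with the 10 genes, and GLDP1, for a subunit of glycine decarboxylase, had 0.40 and −0.55. LHCB1.3 had 0.38 and 0.85, CA1 had 0.26 and 0.81, and RBCS1A had −0.04 and 0.70. RCA was lowest in replicate 7 at 1024 CPM and highest in replicate 9 at 1789.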
